A study of Drosophila melanogaster with 12 samples.

Results

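In *Drosophila* photoreceptors that expressed a dominant negative form of the circadian transcription factor Clock (Clk), 43 genes were higher at D10 than at D1, while their mean levels in control photoreceptors at D10 were under 1.3 times those at D1. These genes were chosen from the expression values themselves, as CPM, the counts of a gene per 1000000 counts of its library. The lowest of the 3 Rh1>ClkDN samples at D10 had to be at least 1.8 times the highest of the 3 at D1, and the mean of Rh1>Ctrl at D10 had to be under 1.3 times the mean of replicates 1 and 2 of Rh1>Ctrl at D1. A gene also needed at least 1 CPM in replicate 1 of Rh1>Ctrl at D1 and 10 CPM in every Rh1>ClkDN sample at D10. Of the 13929 genes in the table, 4074 met these minimum levels and 152 of them met the ratio in Rh1>ClkDN. The other 109 of these were left out by the control condition. The changes with age in both genotypes therefore describe the choice. Counts of calls in these contrasts are given only beside the share of all genes called, and nothing is read from them.

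RNA was sequenced from photoreceptor nuclei of male flies in 4 groups of 3 biological replicates, with 400 flies pooled in each sample. All flies carried Rh1-Gal4 and UAS-GFP-Msp300KASH, which tags the outer membrane of the nucleus for immuno-enrichment, together with the w and ry[506] alleles. Rh1>ClkDN flies also carried UAS-ClkDN and Rh1>Ctrl flies UAS-LacZ, so that both genotypes expressed a Gal4-driven protein. Flies of each genotype were collected at ZT 9 (hours after lights on) at D1, which the sample titles call day 2, and at D10. Rh1-Gal4 is active in outer photoreceptors from the end of pupal development, so that inner photoreceptors and other eye cells do not express ClkDN. The comparison of ages within each genotype asks how the transcriptome changes while ClkDN is continuously expressed.

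Clk and Cycle (Cyc) bind E-box sequences as a pair and activate genes such as *per*, *tim* and *vri*, whose products feed back on the pair and give the daily rhythm. ClkDN lacks the part of the protein that binds DNA but still pairs with Cyc, and thereby takes Cyc away from its targets. Outer photoreceptors sense light with Rhodopsin 1, signal to the lamina by releasing histamine, and have a clock of their own.

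The libraries held between 1356529 and 5635951 counts, and the shallowest was replicate 2 of Rh1>Ctrl at D10. That library also differed most from its group. Its chi-square over genes, divided by the degrees of freedom, was 70.1 and 37.9 against replicates 1 and 3, and 22.1 between those. The rule uses it in the control mean, and without it gave 41 genes, of which 29 were among the 43. Replicate 3 of Rh1>Ctrl at D1 stood apart, with counts for 2337 genes that had none in the other libraries of its group, against 18 and 41 such genes for replicates 1 and 2. Replicate 1 of Rh1>ClkDN at D1, which the rule uses, also differed from its group: its chi-square over genes, divided by the degrees of freedom, was 15.9 and 15.6 against the other replicates and 3.44 between those. Its fat body and hemocyte markers summed to 2577 CPM, against 620 and 750 CPM in the others, and its brain neuron markers to 456 CPM, against 281 and 274 CPM. Without that library the rule gave 70 genes, which included all 43. All 12 photoreceptor markers were detected, and their summed level was between 19270 and 21426 CPM over the Rh1>ClkDN samples and between 50165 and 85460 CPM over the Rh1>Ctrl samples. None of the markers of pigment and cone cells, glia, brain neurons, muscle or fat body was at 0 in all libraries. The 8 pigment and cone cell markers summed to between 2709 and 4117 CPM in Rh1>ClkDN and between 811 and 1546 CPM in Rh1>Ctrl. Most of each sum was *w*, which is also the marker gene carried by the UAS-GFP-Msp300KASH transgene. In the genotypes that the paper gives, the UAS-LacZ and UAS-ClkDN transgenes carry it as well. The part of these inserts in the level of *w* cannot be told apart from that of ClkDN. The other 7 markers summed to between 209 and 388 CPM in Rh1>ClkDN and between 201 and 312 CPM in Rh1>Ctrl, which overlap. Calls were counted on other, longer lists than the sums for all of these cell types but photoreceptors. For pigment and cone cells 15 markers were listed for the calls and 9 for the sums, and for glia 12 and 10. With age in Rh1>ClkDN, 5 of 9 muscle markers tested fell and 1 rose, 2 of 11 pigment and cone cell markers fell, and 2 of 11 glia markers rose and 2 fell. At most 1 marker was called for photoreceptors (1 of 12 rose), brain neurons (1 of 12 fell) and fat body and hemocytes (1 of 8 rose). By CPM alone, 6 of the 12 photoreceptor markers lay wholly lower at D10 than at D1 in Rh1>ClkDN and 1, *trpl*, wholly higher. *trpl* was between 1807 and 1885 CPM at D1 and between 3056 and 3514 CPM at D10, which is part of the summed level above. Without replicate 1 of Rh1>ClkDN at D1, none of the pigment and cone cell markers fell and 1 rose, and 4 of the 8 fat body and hemocyte markers rose. No pigment and cone cell marker was called without replicate 1 or replicate 3 at D10, and no fat body and hemocyte marker when any of the other 5 libraries was left out. The part of such differences in the values below was not tested. In bulk samples, fewer cells of a type and less RNA per cell cannot be told apart. *Clk* reads, which include those of the transgene, exceeded the control by 7.91 (D1) and 7.25 (D10) on the log2 scale.

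All 43 genes are protein coding, 26 have a name and 17 have only a CG number. The ratio that chose them was between 1.81 and 15.4, with a median of 2.23. It was under 2 for 14 genes, from 2 to under 3 for 18 genes and 3 or more for 11 genes. Mean levels in Rh1>ClkDN at D10 were between 1.91 and 27.7 times those at D1, with a median of 3.05. Just inside the ratio of 1.8 were *Myc* (1.81), *5-HT7* (1.81) and *sd* (1.82), and just outside were *plh* (1.79), *l(1)G0469* (1.78) and *CG15482* (1.77). Just inside the control condition were *Nup98-96*, *hzg* and *dpr11*, each with a ratio of 1.29, and just outside were *loaf* (1.301), *Mayo* (1.32) and *klg* (1.32). The genes just inside and just outside differ little in value.

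edgeR's quasi-likelihood test called all 43 genes as higher at D10 in Rh1>ClkDN, where it called 8.45% of 8451 genes as higher (a call needed a change of over 1.5-fold and a p, adjusted over all genes tested, under 0.05). Their median log2 fold change in Rh1>ClkDN was 1.61, and that of all genes tested was -0.03. In Rh1>Ctrl, 39 of them had enough counts to be tested, with a median log2 fold change of -0.25 and a range from -2.56 to 0.40. None of these 39 was called in Rh1>Ctrl by edgeR or by DESeq2, and 3 had an unadjusted p under 0.05, where edgeR called 0.525% of 7239 genes in either direction. The mean level in Rh1>Ctrl at D10 was below that of replicates 1 and 2 at D1 for 21 of the 43 genes. Replicate 3 of Rh1>Ctrl at D1 was not used by the rule. Against that library, the control ratio was under 1.3 for 38 genes and 1.3 or more for 5 genes. The change with age differed between the genotypes, by edgeR's test of the interaction, for 12 of the 43 genes, against 0.493% of 9135 genes in that direction, and this difference too came from the rule. The count was between 2 and 4 without any single Rh1>ClkDN library, 3 without replicate 3 of Rh1>Ctrl at D10 and 20 without replicate 1 of that group.

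**Figure D1:**
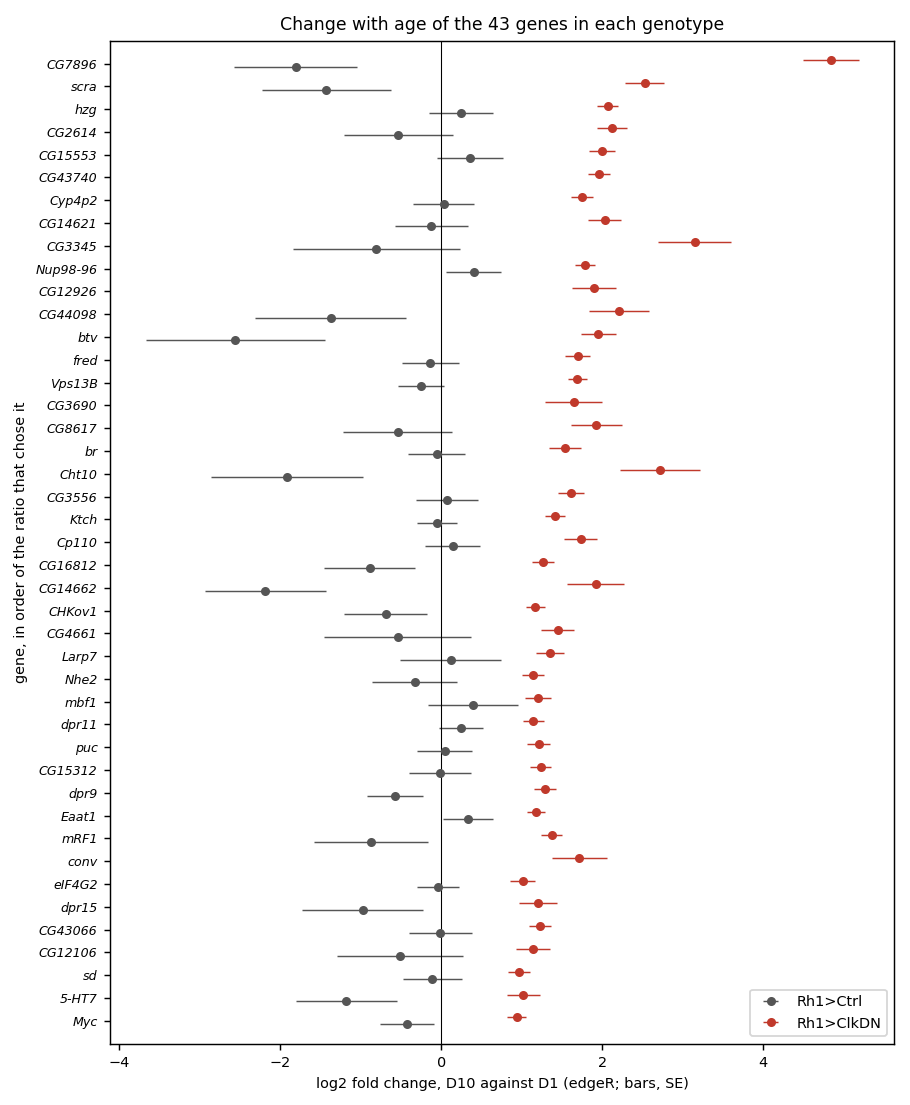
Log2 fold change from D1 to D10 (x axis; edgeR, bars show SE, n = 3 samples per group) of each of the 43 genes (y axis) in Rh1>ClkDN (red) and Rh1>Ctrl (grey). The red points lie between 0.93 and 4.84 and the grey points between -2.56 and 0.40, and 4 genes with too few counts for the test in Rh1>Ctrl have no grey point.

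The 43 genes did not start from a common position relative to the control. At D1 the Rh1>ClkDN samples were all above the Rh1>Ctrl samples for 24 genes, overlapped them for 16 genes and were all below them for 3 genes. Of all 8220 genes tested, 21.4% lay wholly above and 14.4% wholly below. At D10 they were all above for 42 genes and all below for 1 gene, with 26.1% of 7875 genes wholly above and 15.0% wholly below. The rule favours low values in Rh1>ClkDN at D1 and high values at D10, so these counts describe the genes and are no independent evidence. The median log2 fold change between genotypes was 0.84 at D1 and 3.01 at D10, beside 0.04 and 0.01 over all genes tested. edgeR called 18 of the 43 genes as higher and 2 as lower at D1, against 10.2% and 5.86% of all genes tested. At D10 it called 40 as higher and 1 as lower, against 15.0% and 8.2%. Without replicate 1 or replicate 2 of Rh1>ClkDN at D10, 27 were called as higher and none as lower, of 38 then tested.

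The 24 genes that were above the control at both ages included *CHKov1*, *CG43740*, *mRF1*, *eIF4G2*, *Eaat1*, *Nhe2*, *Nup98-96* and *sd*. Their means in Rh1>ClkDN were between 1.45 and 33.4 times those in Rh1>Ctrl at D1, with a median of 3.24. The 16 genes that overlapped at D1 and were above at D10 had a median change with age in Rh1>ClkDN of 3.81-fold, and that of the 24 genes was 2.47-fold. The rule used this change, and the level in Rh1>ClkDN at D1 both splits the genes and is the base of the change. Nothing is therefore read from the difference between these medians. Among the 16 genes were *scra*, *Cyp4p2*, *btv*, *br*, *Cp110*, *conv*, *dpr15* and *5-HT7*. *CG7896* and *Myc* went from wholly below the control at D1 to wholly above it at D10. *puc* was below the control at both ages. The overlap at D1 depended on replicate 3 of Rh1>Ctrl for 7 genes, since without it 31 genes were above, 9 overlapped and 3 were below, with 38.1% of all genes wholly above. Without that library edgeR called 26 genes as higher and 2 as lower at D1.

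**Figure D2:**
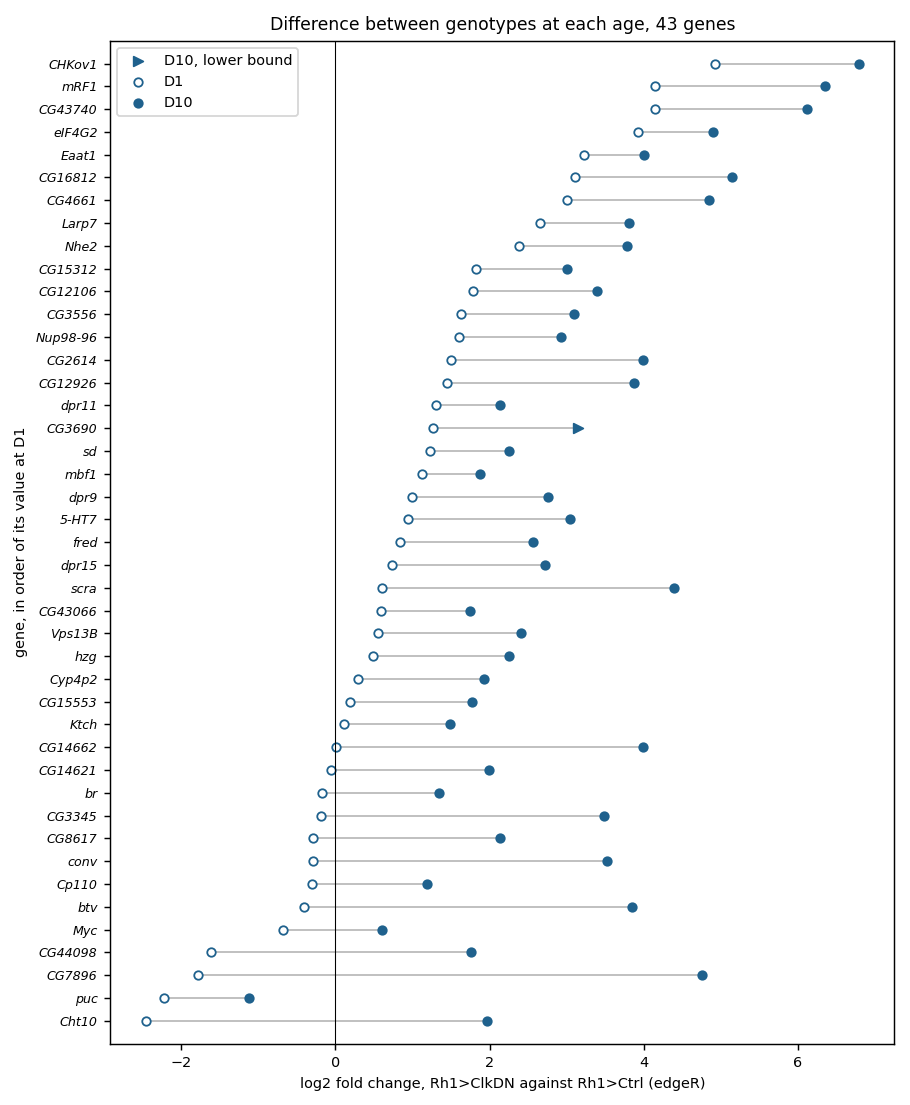
Log2 fold change of Rh1>ClkDN against Rh1>Ctrl (x axis; edgeR, n = 3 samples per group) at D1 (open circles) and D10 (filled circles) for each of the 43 genes (y axis). Every gene lies further to the right at D10, as the rule favours, and 31 genes are to the right of 0 at D1 and 42 at D10. The triangle is a lower bound for *CG3690*, which had no counts in Rh1>Ctrl at D10.

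Translation, elongation of transcripts and transport through the nuclear pore were represented by 4 genes. *eIF4G2* (FBgn0260634, chr3R:23808285-23819237) encodes a scaffold protein of translation initiation, known in flies for its part in the testis. It had 2678, 2923 and 2928 CPM in replicates 1, 2 and 3 of Rh1>ClkDN at D1, and 5907, 5507 and 5830.2 CPM at D10. In Rh1>Ctrl it had 177, 186 and 176 CPM at D1 and 177, 156 and 222 CPM at D10. Mean levels were thus 15.8 times the control at D1 and 31.1 times at D10, and the control samples of the 2 ages overlapped. *CG33111* overlaps it on the same strand and was also called as higher with age in Rh1>ClkDN, so that reads of the pair cannot be told apart. *Nup98-96* (FBgn0039120, chr3R:23774225-23781621) encodes a pair of proteins of the nuclear pore. Its levels were 128, 133 and 128 CPM at D1 and 466, 403 and 475 CPM at D10 in Rh1>ClkDN, against 43.0, 46.5 and 30.2 CPM and 36.1, 71.5 and 65.4 CPM in Rh1>Ctrl. Of the 19 nucleoporin genes tested, it alone was called in Rh1>ClkDN with age. *mRF1*, which releases finished proteins from mitochondrial ribosomes, had 94.9, 62.6 and 68.3 CPM at D1 and 180.0, 187 and 207 CPM at D10 in Rh1>ClkDN. It stayed between 1.65 and 5.35 CPM in all Rh1>Ctrl samples. *Larp7*, whose protein binds the 7SK RNA that restrains transcription elongation, went from a mean of 25.9 ± 3.96 to 65.4 ± 5.73 CPM (SD, n = 3) in Rh1>ClkDN and was between 2.98 and 5.14 CPM in Rh1>Ctrl.

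Transcription factors among the 43 genes differed in their position relative to the control. *sd* encodes the TEAD factor of the Hippo pathway, which works with Yorkie. In Rh1>ClkDN it had 422, 506 and 490.1 CPM at D1 and 923, 931 and 930.0 CPM at D10, and in Rh1>Ctrl between 95.8 and 242 CPM. *vg*, whose product pairs with that of *sd* in the wing, fell with age in Rh1>ClkDN by 2.15 on the log2 scale, with an SE of 0.21 and an adjusted p of 3.3e-06 (edgeR). It was still above the control at both ages, by log2 fold changes of 5.12 at D1 and 3.55 at D10. *Myc* (FBgn0262656, chrX:3373159-3391697), a factor that promotes cell growth and ribosome production, had 275, 276 and 295 CPM at D1 and 537, 547 and 532 CPM at D10 in Rh1>ClkDN. Its levels in Rh1>Ctrl were 424, 427 and 462 CPM at D1, all above those of Rh1>ClkDN, and 453, 196 and 364 CPM at D10, all below. At D10 the difference in *Myc* between genotypes was a log2 fold change of 0.61 with an SE of 0.30 and did not pass edgeR's test. *br*, a target of the hormone ecdysone with BTB and zinc finger domains, had 30.1, 44.2 and 47.0 CPM at D1 and 121, 118 and 120.2 CPM at D10 in Rh1>ClkDN, and 46.0 ± 14.5 and 44.6 ± 16.7 CPM in Rh1>Ctrl (SD, n = 3). *mbf1*, a coactivator that bridges factors of the bZIP class and the basal machinery, went from 36.9 ± 3.31 to 84.9 ± 3.61 CPM in Rh1>ClkDN (SD, n = 3), and 2 of the 3 Rh1>Ctrl samples at D10 were above those at D1.

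*puc* (FBgn0243512, chr3R:8105332-8122294) encodes the phosphatase that switches off the kinase JNK and is itself induced by JNK signalling. Alone among the 43 genes, it was on any of the 14 lists of stress, immune, clock, light response and synapse genes. It had 147, 157 and 161 CPM at D1 and 348, 406 and 322 CPM at D10 in Rh1>ClkDN. The Rh1>Ctrl samples had 724, 663 and 708 CPM at D1 and 923, 414 and 904 CPM at D10, so that every Rh1>ClkDN sample was below every control sample at both ages. The mean was 0.222 times the control at D1 and 0.48 times at D10. In the list of JNK and AP-1 targets and immediate early genes, 7 of the 14 tested rose in Rh1>ClkDN and none fell, with a median log2 fold change of 0.70. Besides *puc*, these were *kay* (0.76 ± 0.11, SE), which encodes Fos, the matrix protease gene *Mmp1* (1.71 ± 0.23), *Gadd45* (2.19 ± 0.71, called without replicate 1 at D1 but not without any other library), *Hr38* (0.76 ± 0.11), *sr* (1.19 ± 0.21) and *CrebA* (1.53 ± 0.16). Of the 7 genes, *sr* and *CrebA* had log2 fold changes of 1.44 and 1.88 with age in Rh1>Ctrl, while those of *kay* and *Mmp1* were -0.64 and -0.38. Against the control, *kay* had log2 fold changes of -1.24 at D1 and 0.09 at D10. Among 10 genes of the JNK pathway tested, 2 rose with age in Rh1>ClkDN, *puc* and *kay*, and 2 fell. Those that fell were *msn* (-0.65 ± 0.125, SE) and *Tak1* (-0.61 ± 0.16). Between 1 and 3 fell when a single library was left out. *bsk*, the JNK gene itself, had a log2 fold change of -0.34 ± 0.17 and was not called.

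No gene for a heat shock protein or chaperone was among the 43 genes. Of 22 cytosolic chaperone and co-chaperone genes tested, 13 rose and 1 fell in Rh1>ClkDN, with a median log2 fold change of 0.78. Between 9 and 13 rose when a single library was left out. Calls on the lists were counted only in Rh1>ClkDN, so these counts do not show whether the change is particular to it. Of 14 heat shock protein genes tested, 5 rose and 1 fell, with a median of 0.21, and the near-identical *Hsp70* copies share reads. *Hsp83* had log2 fold changes with age of 1.86 in Rh1>ClkDN and 5.13 in Rh1>Ctrl, and those of *Stip1* were 2.73 and 2.21. Without replicate 2 at D1, or replicate 2 or 3 at D10, 3 heat shock protein genes rose. Over all genes tested in Rh1>ClkDN, 8.45% rose and 6.18% fell. Among 29 genes of the unfolded protein response of the endoplasmic reticulum 5 rose and none fell, and among 18 of the integrated stress and Xrp1 response 2 rose and 1 fell. *Xrp1*, a transcription factor of cell stress, had a log2 fold change of 1.74 ± 0.11 (SE) in Rh1>ClkDN and of 1.29 in Rh1>Ctrl. Few genes were called among those of the proteasome (1 of 30 rose), autophagy and lysosome (1 of 24 fell), DNA damage and repair (1 of 15 rose) and mitochondrial chaperones and proteases (1 of 12 rose). Without replicate 1 of Rh1>ClkDN at D1, 8 of the unfolded protein response genes rose. Of 25 antioxidant and detoxification genes, 2 rose and 2 fell (4 rose and 2 fell without that library), as did 2 and 2 of 10 innate immune effectors. Core clock genes gave 1 fall among 9 tested, that of *cwo*. Among 30 phototransduction genes 1 rose and 2 fell, and among 23 synaptic and axonal genes 3 rose and 1 fell.

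**Figure D3:**
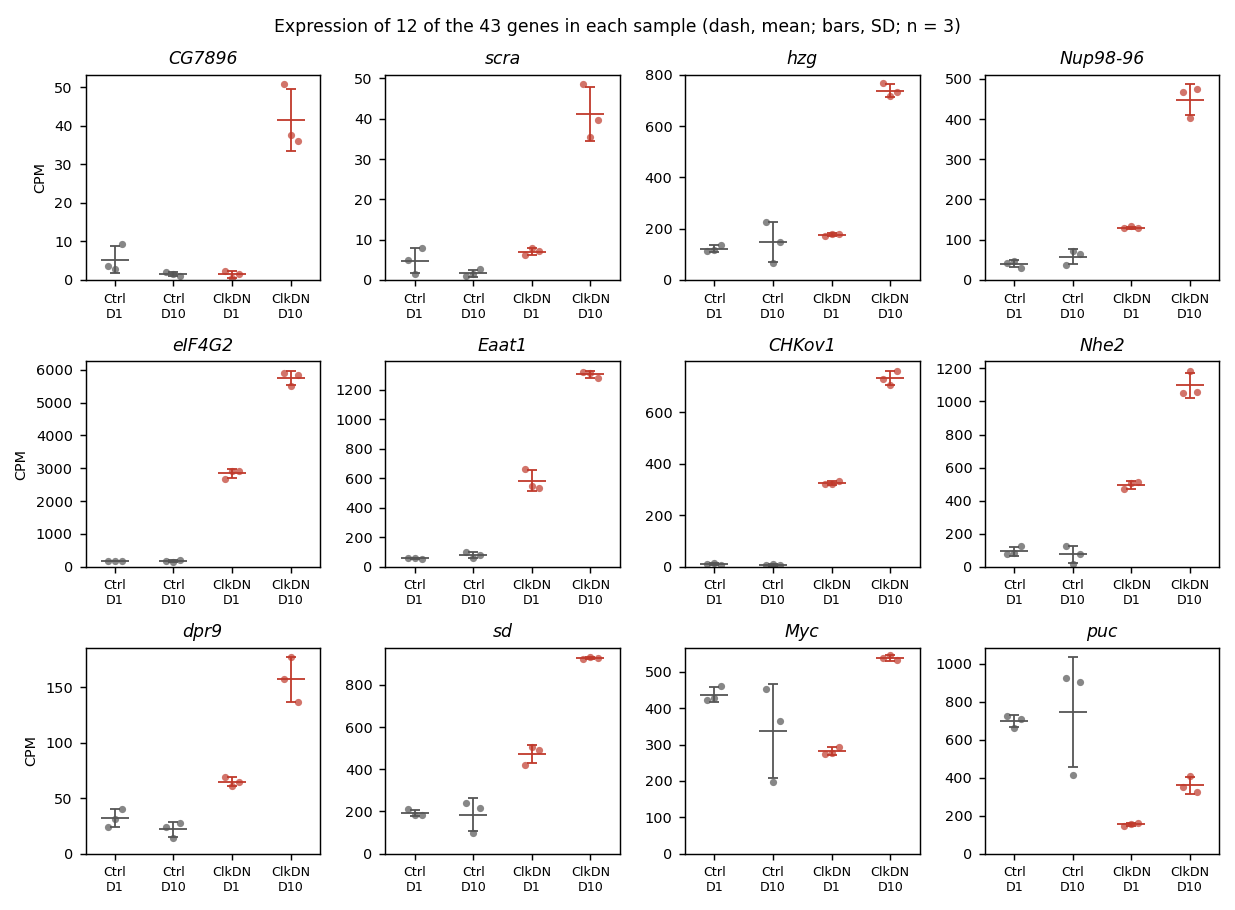
Expression in CPM (y axes, each from 0) of 12 of the 43 genes in each sample of the 4 groups (x axes). Points are samples, dashes are means and bars are SD (n = 3). *CHKov1*, *eIF4G2* and *Eaat1* are above the control at both ages, *CG7896* and *scra* are above it at D10, *Myc* crosses it and *puc* stays below it.

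Cell surface proteins, a group chosen after the values were seen, included 3 of the Dpr family. The Dpr proteins are a family with immunoglobulin domains that bind the related DIP proteins on partner neurons and take part in synaptic matching in the fly visual system. *dpr11* had 125, 134 and 140.2 CPM at D1 and 287, 316 and 280.2 CPM at D10 in Rh1>ClkDN, and between 48.9 and 79.6 CPM in Rh1>Ctrl. Alone among the 43 genes, its Rh1>Ctrl samples at D10 were all above those at D1 (10.3% of all genes tested were), and for *CG7896*, *CG3690* and *CG14662* they were all below (9.16%). *dpr9* had 69.0, 61.2 and 64.2 CPM at D1 and 157, 177 and 137 CPM at D10 in Rh1>ClkDN, and between 14.0 and 40.7 CPM in Rh1>Ctrl. *dpr15* had 12.5, 13.2 and 10.1 CPM at D1 and 30.6, 26.7 and 24.6 CPM at D10 in Rh1>ClkDN, while its highest control value was 15.7 CPM in replicate 3 at D1 and the others were at most 5.76 CPM. Of the 21 *dpr* genes tested, 6 rose with age in Rh1>ClkDN, 2 fell and 13 were not called, where 8.45% of all genes rose, and 3 of the 6 are among the 43 genes and were chosen for this change. The other 3 that rose were *dpr12* (log2 fold change 1.39 ± 0.15, SE), *dpr14* (0.97 ± 0.22) and *dpr21* (1.61 ± 0.27), whose log2 fold changes in Rh1>Ctrl were 0.61, -0.48 and 1.01, and *dpr8* (-1.06 ± 0.13) and *dpr19* (-0.86 ± 0.25, not called without replicate 3 at D1 or without any single replicate at D10) fell. Among 10 *DIP* genes tested, *DIP-alpha*, *DIP-beta* and *DIP-kappa* rose with age in Rh1>ClkDN, by log2 fold changes of 1.19, 1.13 and 1.08, and none fell. Their log2 fold changes in Rh1>Ctrl were 1.27, -0.76 and 0.69. Without replicate 1 or replicate 2 of Rh1>ClkDN at D10, 1 of the *DIP* genes rose.

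*fred*, which encodes an adhesion protein with immunoglobulin domains related to Echinoid, went from 36.8 ± 1.22 to 119 ± 13.6 CPM in Rh1>ClkDN (SD, n = 3) and overlaps *Fpgs2* on the same strand. *conv*, which encodes a protein with leucine-rich repeats known from tracheal tubes, was at 18.2, 13.7 and 20.3 CPM at D10 in Rh1>ClkDN. It had 19.0 CPM in replicate 3 of Rh1>Ctrl at D1 and at most 3.69 CPM in the other control samples. *5-HT7*, a serotonin receptor coupled to G proteins, had 18.6, 18.6 and 14.4 CPM at D1 and 33.6, 35.0 and 35.1 CPM at D10 in Rh1>ClkDN, against 6.25, 4.95 and 16.8 CPM and 5.30, 4.42 and 2.67 CPM in Rh1>Ctrl. The serotonin receptor genes *5-HT1A* (log2 fold change 0.96 ± 0.26, SE) and *5-HT1B* (1.07 ± 0.32) also rose with age in Rh1>ClkDN, and the other 2 of 5 were not called. Neither *5-HT1A* nor *5-HT1B* was called without replicate 2 at D1, or without replicate 1 or 3 at D10, and their log2 fold changes in Rh1>Ctrl were 0.50 and 0.08.

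Transporters were represented by *Nhe2* and *Eaat1*. *Nhe2*, an exchanger of sodium ions and protons, had 470.1, 507 and 511 CPM at D1 and 1053, 1184 and 1055 CPM at D10 in Rh1>ClkDN, and 126, 18.4 and 79.0 CPM in Rh1>Ctrl at D10. *Eaat1* (FBgn0026439, chr2L:9333567-9341925) encodes the transporter that takes up glutamate, best known from glia. It had 665, 546 and 537 CPM at D1 and 1321, 1313 and 1276 CPM at D10 in Rh1>ClkDN, all above the 54.8 to 97.7 CPM of the Rh1>Ctrl samples. *Eaat1* was on the list of 10 glia markers used for the sums, of which 2 lay wholly higher and 2 wholly lower at D10 than at D1 in Rh1>ClkDN. The other 9 glia markers summed to between 370 and 603 CPM at D1 and between 276 and 301 CPM at D10 in Rh1>ClkDN, with *nrv2* going from between 225 and 306 CPM to between 92.7 and 110 CPM. Without *nrv2*, the other 8 summed to 297, 145 and 145 CPM at D1 and 208, 168 and 179 CPM at D10, which overlap. *repo*, the defining gene of glia, was at most 9.2 CPM in the Rh1>ClkDN samples and between 3.37 and 30.2 CPM in Rh1>Ctrl. Besides *Eaat1*, *loco* was wholly higher at D10 in Rh1>ClkDN, between 11.2 and 26.4 CPM at D1 and between 34.4 and 45.8 CPM at D10. Besides *nrv2*, *alrm* was wholly lower. *moody* was between 28.1 and 36.3 CPM in Rh1>ClkDN and between 6.34 and 13.6 CPM in Rh1>Ctrl. The part of glia in the level of *Eaat1* was not tested. *Eaat2* rose with age in Rh1>ClkDN by a log2 fold change of 0.59 ± 0.12 (SE), beside 0.47 in Rh1>Ctrl. It was not called without replicate 1 of Rh1>ClkDN at D1 or at D10. Its differences from the control were -1.79 at D1 and -1.73 at D10 on the log2 scale.

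The cytoskeleton, cilia and vesicles were represented by *scra*, *btv*, *Cp110* and *Vps13B*. *scra* (FBgn0261385, chr2R:7590119-7595242) encodes anillin, which organizes the contractile ring of dividing cells. It had 6.27, 7.81 and 7.10 CPM at D1 and 48.6, 35.5 and 39.8 CPM at D10 in Rh1>ClkDN. In Rh1>Ctrl it had 4.92, 1.58 and 7.84 CPM at D1 and 0.993, 1.47 and 2.67 CPM at D10. *btv*, a dynein heavy chain of the cilia of hearing neurons, had 14.1, 8.74 and 12.2 CPM at D1 and 43.5, 49.0 and 41.3 CPM at D10 in Rh1>ClkDN. In Rh1>Ctrl it was at 49.6 CPM in replicate 3 at D1 and between 1.32 and 4.94 CPM in the other 5 samples. Of the 8 dynein heavy chain genes tested, 4 rose with age in Rh1>ClkDN and none fell, where 8.45% of all genes rose. Among the 4, *btv* was chosen for this change. *Dhc98D* and *Dhc36C* had log2 fold changes of 0.79 and 0.64 in Rh1>ClkDN, and of 0.78 and -2.35 in Rh1>Ctrl. *kl-3* (2.70 ± 0.54, SE), which lies on the Y chromosome, had only 0.784, 2.60 and 0.710 CPM at D1 in Rh1>ClkDN. *Cp110*, which caps centrioles, went from 15.5 ± 4.50 to 50.1 ± 3.77 CPM in Rh1>ClkDN and from 18.4 ± 2.70 to 21.2 ± 5.41 CPM in Rh1>Ctrl (SD, n = 3). It overlaps *l(1)G0196* on the same strand. *Vps13B*, of a family of proteins that carry lipids between membranes, had 116, 104 and 91.0 CPM at D1 and 325, 349.7 and 317 CPM at D10 in Rh1>ClkDN, and between 43.4 and 90.7 CPM in Rh1>Ctrl.

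**Figure D4:**
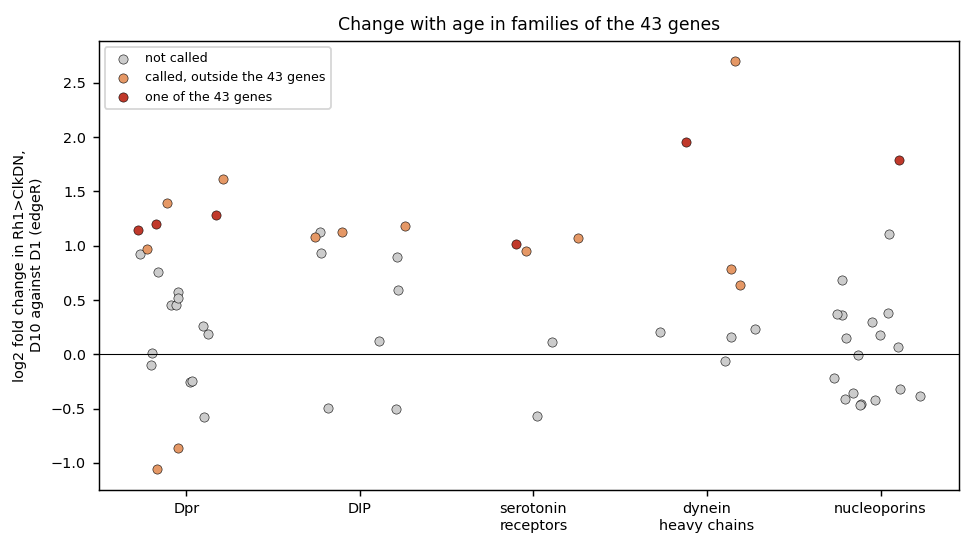
Log2 fold change from D1 to D10 in Rh1>ClkDN (y axis; edgeR) of all tested members of 5 gene families (x axis; points are genes, spread sideways for clarity). Of 21 *dpr* genes 6 rose and 2 fell, and of 19 nucleoporin genes only *Nup98-96* was called.

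Enzymes included *hzg*, *Cyp4p2*, *CHKov1* and *Cht10*. *hzg* (FBgn0036556, chr3L:15992669-16004736), a phosphatase of the HAD class, had 171, 178 and 180.3 CPM at D1 and 766, 717 and 733 CPM at D10 in Rh1>ClkDN. Its control samples had 112, 116 and 138 CPM at D1 and 224, 67.8 and 149 CPM at D10. *Cyp4p2*, a cytochrome P450, had 50.7, 47.4 and 49.3 CPM at D1 and 159, 174 and 159.8 CPM at D10 in Rh1>ClkDN, and between 21.4 and 53.4 CPM in Rh1>Ctrl. The related genes *Cyp4p1* (log2 fold change 1.43 ± 0.18, SE) and *Cyp4p3* (1.36 ± 0.31) rose as well, and *Cyp4e2* and *Cyp4g1* fell, among 16 *Cyp4* genes tested. In Rh1>Ctrl the log2 fold change with age was 1.11 for *Cyp4p1* and 0.03 for *Cyp4p2*, and *Cyp4p3* had too few counts for the test. *Cyp4e2* was called only with all libraries or without replicate 1 at D1. *CHKov1* (FBgn0045761, chr3R:25323156-25329316) encodes a protein related to choline kinase, and its variants are known for their link to resistance to sigma virus. It had 321, 323 and 333 CPM at D1 and 729, 706 and 760.2 CPM at D10 in Rh1>ClkDN, and at most 13.1 CPM in Rh1>Ctrl, which made its mean 33.4 times the control at D1 and 108 times at D10. Its paralogue *CHKov2* had 18.3, 6.13 and 4.08 CPM at D1 and 2.63, 2.47 and 3.58 CPM at D10 in Rh1>ClkDN. Its log2 fold change was -1.61 ± 0.50 (SE) with all libraries, where it was called, and -0.89 without replicate 1 at D1, where it was not. *Cht10*, a chitinase, went from 2.09 ± 2.05 to 12.4 ± 1.28 CPM in Rh1>ClkDN (SD, n = 3) and was at 31.7 CPM in replicate 3 of Rh1>Ctrl at D1.

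*CG7896* (FBgn0039728, chr3R:29983426-29990785), whose role is not given in the files, had the highest ratio. In Rh1>ClkDN its levels were 2.35, 0.558 and 1.60 CPM at D1 and 50.8, 37.7 and 36.2 CPM at D10. The value of 0.558 CPM was that of 3 counts, so the size of the ratio rests on few counts at D1. Its difference from the control at D1 was not called (log2 fold change -1.79 ± 0.74, SE). In Rh1>Ctrl they were 3.60, 2.97 and 9.33 CPM at D1 and 1.99, 1.47 and 1.03 CPM at D10, so that the control was lower at D10 in every sample. *CG3345* went from 4.97, 1.12 and 1.06 CPM to 15.2, 23.6 and 19.0 CPM in Rh1>ClkDN, and was at most 4.48 CPM in Rh1>Ctrl. *CG43740* was at 63.0, 72.9 and 60.9 CPM at D1 and 276, 235 and 255 CPM at D10 in Rh1>ClkDN and at most 6.14 CPM in Rh1>Ctrl. *CG2614* went from 14.5 ± 2.08 to 62.5 ± 2.63 CPM in Rh1>ClkDN (SD, n = 3), above a control of at most 7.46 CPM. *CG15553* and *CG14621* were at the control level at D1, with means of 40.9 ± 5.80 and 16.7 ± 3.30 CPM in Rh1>ClkDN, and at 165 ± 4.88 and 67.7 ± 7.56 CPM at D10 (SD, n = 3). *CG3690* had no counts in any Rh1>Ctrl sample at D10 and 11.2 ± 1.83 CPM in Rh1>ClkDN (SD, n = 3), which was at least 8.83-fold higher with the control set at 3 counts per library. The other genes without a named role, 10 with a CG number and *Ktch*, had changes with age in Rh1>ClkDN from 2.20-fold (*CG12106*) to 4.54-fold (*CG44098*).

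The rule, which sets the lowest D10 sample against the highest D1 sample, favours genes with a small spread in Rh1>ClkDN. The median coefficient of variation over the genes was 12.2% at D1 and 7.99% at D10 in Rh1>ClkDN, and 29.6% and 40.9% in Rh1>Ctrl. In Rh1>Ctrl at D1, replicate 3 held the highest value for 28 genes and was more than 2 times the higher of the other replicates for 12 genes. Replicate 2 of Rh1>Ctrl at D10 held the lowest value of its group for 19 genes. The Rh1>ClkDN samples at D10 were all above the Rh1>Ctrl samples at D1 for 38 genes, where 24.0% of all genes tested were. They overlapped for *CG44098*, *btv*, *Cht10* and *conv*, and were below for *puc*.

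The 43 genes were spread over the chromosomes as 12 on X, 9 on 2L, 6 on 2R, 2 on 3L, 14 on 3R and none on 4. Their shares on 3L and 3R were 4.65% and 32.6%, and those of the 4074 genes that met the minimum levels were 18.5% and 22.9%. On the X they were 27.9% and 20.1%. Their median summed exon length was 3490 bases, and that of the 4074 genes was 3588 bases. In 6 cases neighbours among the 43 genes lay within 50000 bases of each other, which took in 12 genes. The share of the 4074 genes with such a neighbour was not counted, so nothing is read from this number. *mRF1* and *CG16812* lay 1188 bases apart on 2L, and both were far above the control at D1, by 19.0 and 8.60 times. Between *CG15553* and *Ktch* on 3R, both of the tested genes rose with age in Rh1>ClkDN, *Mayo* and *Prosalpha3T*. Among the genes tested from *CG12106* to *Larp7* on X, which can include genes that overlap either, 5 of 10 rose and 1 fell. Counted in the same way, 2 of 7 rose from *CG14621* to *Cp110* on X. From *Nup98-96* to *eIF4G2* on 3R, 1 of 2 rose, *CG33111*, which overlaps *eIF4G2*. The single gene tested between *Vps13B* and *CG7896* was not called. For 25 of the 43 genes the annotation overlaps another gene, on the same strand for 9, and their counts may hold reads of the neighbour.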

How the data were processed

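The authors deposited a table of counts per gene for 12 RNA samples, made with Trimmomatic, STAR and SAMtools on the dm6 genome per the labels, and named it as normalized. All values are whole numbers and the library totals differ by 4.15-fold, so they were treated as raw counts; the strand setting is not given in the sources used here. CPM was the count over the library total. Locations are those of Ensembl release 115, which located 13866 of 13929 genes.

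Pairs of groups were fitted with edgeR 4.0.16 in R 4.3.3 (TMM, quasi-likelihood test) on genes that reached 10 counts in 3 or more samples. A call needed a change of over 1.5-fold and a p under 0.05 after Benjamini-Hochberg adjustment over all genes tested. For the interaction of genotype and age, fitted on all 12 samples, no fold change was required. Standard errors were the log2 fold change over the square root of the F statistic. A fold against a group without counts used a floor of 3 counts per library. Replicates of a group differed by a chi-square per degree of freedom of 3.12 to 70.1, so that no library was a copy. In counts simulated for Rh1>ClkDN at D10 against D1, with 200 changed genes among 8466, the test recovered 42% of 2-fold and 97% of 4-fold changes. The simulation gave all genes a common dispersion, had no library that stood apart and changed no gene with low counts. These shares therefore need not hold for the real libraries. Python 3.11.15 and matplotlib 3.10.9 served for the figures.

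The genes and the lists were chosen with earlier results of these data known. Of the 43 genes, 19 are named by rule: the 10 with the largest ratio, the 10 with the highest level at D10, those on a list, and the 3 just inside the ratio. The others, and the gene families, were named after their values were seen. Of 419 distinct symbols on the lists, 389 were in the table, and *PEK* is on 2 lists. Alternatives were DESeq2 1.42.0, other scalings, thresholds and filters, a block for the replicate number, 1 fit over all samples, and leaving out each replicate. Promoter sequences were not analysed here.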

Additional observations from a re-analysis of the deposited data

Results flagged for a closer look

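The change with age differed between genotypes for 12 of the 43 genes by edgeR's test of the interaction (adjusted p under 0.05), all with a larger value in Rh1>ClkDN, where 0.493% of 9135 genes were called in that direction. The rule for the 43 genes used both changes with age, so these values describe the choice. The log2 change with age in Rh1>ClkDN minus that in Rh1>Ctrl was 6.54 for *CG7896*, 3.77 for *scra*, 3.96 for *CG14662*, 2.49 for *CG2614*, 2.21 for *mRF1* and 2.03 for *CG16812*. It was 1.85 for *CHKov1*, 1.83 for *Vps13B*, 1.75 for *dpr9*, 1.71 for *fred* and 1.36 for *Ktch*. The fitted value of *CG3690* was 7.24, which depends on the prior count because the gene had no counts in Rh1>Ctrl at D10, and is no bound. Without any single Rh1>ClkDN library 2 to 4 of these genes were called, and without replicate 3 of Rh1>Ctrl at D10 there were 3, *CG7896*, *Vps13B* and *scra*. Without replicate 1 of Rh1>Ctrl at D10, 20 of the 43 genes were called. Leaving out each library in turn, *CG7896* was called in every fit and *Vps13B* in all but that without replicate 3 of Rh1>ClkDN at D1.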

How the results depend on the processing

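The number of genes chosen by the rule depended on its settings. It was 43 as given, 65 with TMM-normalized CPM (36 of them shared), 58 with DESeq2 size factors, 82 and 19 with a ratio of 1.5 and 2.5, 27 with a control ratio under 1.1, and 71 with replicate 3 in the control mean at D1. Leaving out each replicate gave 41 to 70 genes, the most without replicate 1 of Rh1>ClkDN at D1. Among these, 29 to 43 of the original 43 genes were kept, with 29 without replicate 2 of Rh1>Ctrl at D10.

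For the change with age in Rh1>ClkDN, 31 of the 43 genes were called with all 12 samples in 1 fit and 42 or 43 without each replicate. In Rh1>Ctrl, 1 gene was called, as lower, with no filter on low counts and with all samples in 1 fit, and none without each replicate. Between genotypes, 16 to 28 were called at D1 and 27 to 42 at D10 without each replicate, beside 20 and 41. For the interaction, 12 were called in the main fit, 1 at an adjusted p under 0.01, 29 by DESeq2, and 2 to 20 without each replicate. The genes of the lists called in Rh1>ClkDN were 55, and 40 to 65 without each replicate. Scaling to the library total shifted the log2 fold changes of the 43 genes by a median of at most 0.06 and turned the direction of none that was called. No called log2 fold change of the 19 genes named by rule changed sign under any alternative run, and calls were lost in 4 cases for age in Rh1>ClkDN, 12 and 11 cases for genotype at D1 and D10, and 20 cases for the interaction.

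The main fits treated the samples as unpaired. Deviations of same-numbered samples from their group means correlated by -0.11 to 0.07. With 3 samples per group and libraries that stand apart, these values cannot decide whether replicate numbers pair the samples. A replicate block called 6 genes for the interaction and 43, 0, 19 and 40 in the comparisons above.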
